A study of Homo sapiens with 12 samples.

Results

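The quantity described here is the difference between 2 enrichments of the same gene: how far its signal stood above the input in the pull-down of miR-3118-3p, minus how far it stood above the input in the pull-down of miR-4307-3p. All 12 of the 12 arrays of the series enter it, and it was computed for 9583 genes with a name in the array annotation. The cells were HEK293T, cells derived from human embryonic kidney that make the large T antigen of SV40, and no other genotype or agent than the transfected microRNA distinguishes the groups. Cells received 200 pmol of a synthetic duplex carrying biotin and were harvested after 24 h. The 4 groups of 3 Illumina bead arrays are the miR-3118-3p pull-down, in which the microRNA and what it held were caught on streptavidin beads, the miR-3118-3p input, the miR-4307-3p pull-down and the miR-4307-3p input. The groups used here include no untransfected cells and no duplex of unrelated sequence, so each microRNA is set against the other. The labels number the replicates but do not say that they came from separate cultures, so the p-values measure only how far these samples differ among themselves, which may be technical variation.

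A microRNA guides an Argonaute protein to messenger RNAs, mainly through pairing of its seed, bases 2 to 8 from the 5′ end, with a complementary stretch of the target. Duplexes with different seeds can therefore pair with different transcripts. A pull-down array shows what was recovered together with the microRNA; it does not show whether a transcript was repressed. The 2 mature sequences are shown because the duplexes differ in the seed, and also in length and in the bases beyond it. The sequences are RefSeq's (GRCh38.p14), with the seed in capitals.
miR-3118-3p: uGUGACUGcauuaugaaaauucu
miR-4307-3p: aAUGUUUUuuccuguuucc
RefSeq lists the first as hsa-miR-3118, 23 bases long, in 4 hairpin genes at chr15:20832838-20832860, chr15:21406428-21406450 and chr15:21843793-21843815 on the plus strand and chr21:13644784-13644806 on the minus strand. The second is hsa-miR-4307, 19 bases long, at chr14:26908697-26908715 on the plus strand. The seed of miR-3118-3p holds 4 G or C and 2 U, that of miR-4307-3p 1 G or C and 5 U, and the seeds have the same base at 3 of their positions. Among 2370 human mature names, hsa-miR-134-5p shares the seed of miR-3118-3p and 0 share that of miR-4307-3p. Transcript sequences were not used here, so no gene below is said to hold a seed match.

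Values are the authors' log2 values. Array medians lay between 7.53 and 7.59, so a level is relative to the other RNA on the same array, and absolute recovery is not measured. On a plain log2 scale a difference of 1 is a 2-fold change; the sources used here do not say if it is plain or variance-stabilised. Of 6 markers of the line 5 had a value. LIN28B, an RNA-binding protein of embryonic cells, lay between 10.22 and 10.57 on the input arrays, and vimentin (VIM) between 11.97 and 12.42. NEFL was weak, among the genes removed by the filter on dim genes that served as an alternative. Of 10 markers of other cell types 2 had a value: ALB (liver) lay between 5.96 and 6.83 on all 12 arrays and COL1A1 (fibroblast) between 5.76 and 6.13, close to the lowest value of the table (5.53). The miR-3118-3p pull-down had the widest spread (median SD over genes 0.230, against 0.128 to 0.135 in the other groups), and its replicate 1 correlated at 0.963 and 0.968 with replicates 2 and 3, which correlated at 0.983 with each other.

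A minority of transcripts were recovered more with one microRNA than with the other. Enrichment was higher with miR-3118-3p for 274 genes (2.86% of those tested) and lower for 453 genes (4.73%), together 7.59%, by limma with Benjamini-Hochberg adjustment at 0.05. The scaffold nucleoporin NUP160, the mitochondrial ribosomal protein MRPS18B and the poly(A)-binding protein PABPC1 were among the genes recovered more with miR-3118-3p. LARP7, which binds 7SK RNA, the X-linked BEX5 and the nucleosome-binding HMGN5 were recovered more with miR-4307-3p, and by larger amounts. The difference reached 1 for 94 of the higher and 264 of the lower genes, and 2 for 1 of the higher genes, NUP160, and 26 of the lower.

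Most of these genes were enriched with one of the microRNAs. Of the 274 higher genes, 230 (83.9%) were enriched with miR-3118-3p; of these, 214 passed no test with miR-4307-3p, 13 were depleted with it and 3 were enriched with both. Another 32 were called as depleted with miR-4307-3p without a call for miR-3118-3p, and 12 passed neither test. Of the 453 lower genes, 374 (82.6%) were enriched with miR-4307-3p: 297 with no call for miR-3118-3p, 69 depleted with it and 8 enriched with both. A further 64 were called as depleted with miR-3118-3p without a call for miR-4307-3p, and 15 passed neither test. The median gene of the higher set had an enrichment of 0.75 with miR-3118-3p and -0.17 with miR-4307-3p. In the lower set the medians were -0.24 with miR-3118-3p and 0.88 with miR-4307-3p. Since a called difference needs the enrichments to lie apart, these counts describe where the difference arose and test nothing further.

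**Figure D1:**
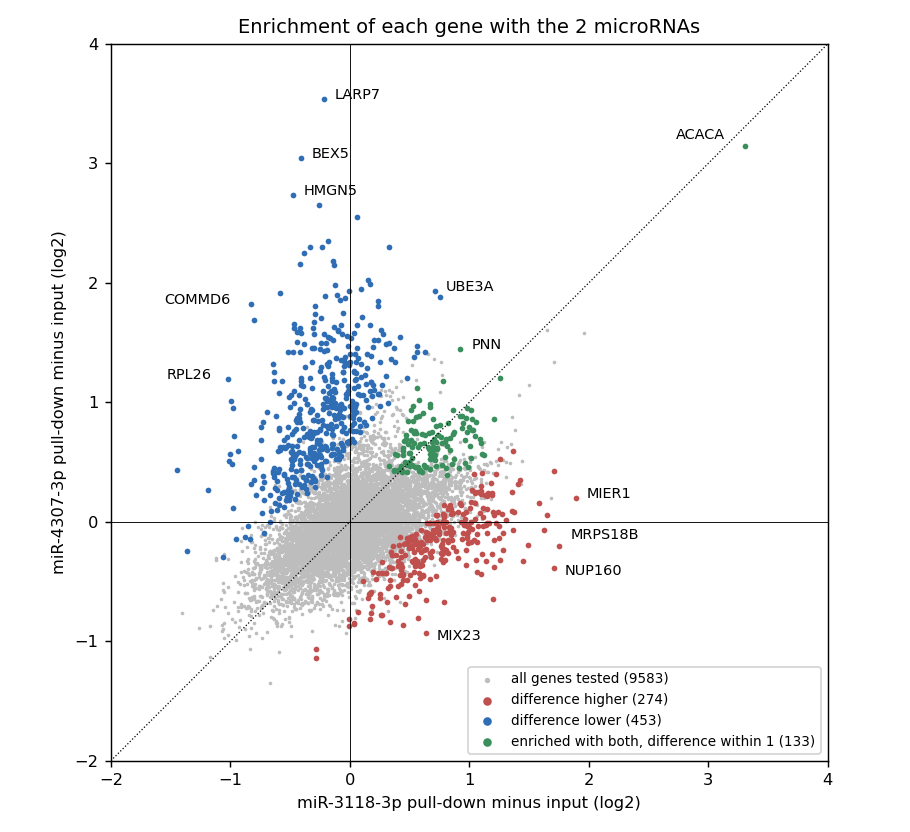
Enrichment of 9583 genes, pull-down minus input on the log2 scale, with miR-3118-3p on the horizontal axis and miR-4307-3p on the vertical axis; each point is a gene, and the dotted line marks equal enrichment. The 274 higher genes spread along the horizontal axis, the 453 lower genes reach further up the vertical axis, and ACACA stands alone on the diagonal, above 3 with both microRNAs.

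In most called genes the pull-downs made up the larger part of the difference. Input against input gave 0 called genes by limma and 160 (1.67%) at an unadjusted p under 0.05. That share is below what chance gives, since the spread was shared with the pull-downs, so this test cannot show that the inputs were alike. With 1 weight per group, which lets the groups differ in spread, it also gave 0 called genes. For all 274 higher and all 453 lower genes the pull-downs differed in the same direction as the difference. Since the genes were chosen on a value that contains the pull-down difference, this direction is largely built in. The difference between inputs made up the larger part of the value in 5 higher genes and 1 lower gene, and more than 25% of it in 35 and 17. Same-numbered enrichments of the microRNAs did not overlap for 726 of the 727 called genes, against 2733 (28.5%) of all genes. The called genes were chosen on these same values, so the higher share among them is no further support. The exception among the called genes was DSN1, which was named for that reason. Over the 9583 genes the 2 enrichments correlated at a Pearson r of 0.35 and a Spearman rho of 0.44. They share no array, but they share the platform, the cells and the bead procedure.

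The balance of higher and lower genes depended on single arrays. Leaving out miR-3118-3p pull-down replicate 1 gave 754 higher and 592 lower genes, and with array weights estimated by limma 660 and 623, so that the higher genes became the more numerous. With same-numbered pull-down and input arrays of each microRNA taken as pairs there were 550 higher and 613 lower genes. The higher count also moved by more than 1.5 times, to 168, without miR-3118-3p input replicate 2, to 182 without miR-4307-3p pull-down replicate 3, and to 178 and 175 without miR-4307-3p input replicates 2 and 3. Differences of at least 1 were less sensitive: in 24 alternatives they numbered between 73 and 180 among the higher genes and between 245 and 288 among the lower genes. Every one of the 727 genes kept its direction in each of these alternatives in which it was tested.

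**Figure D2:**
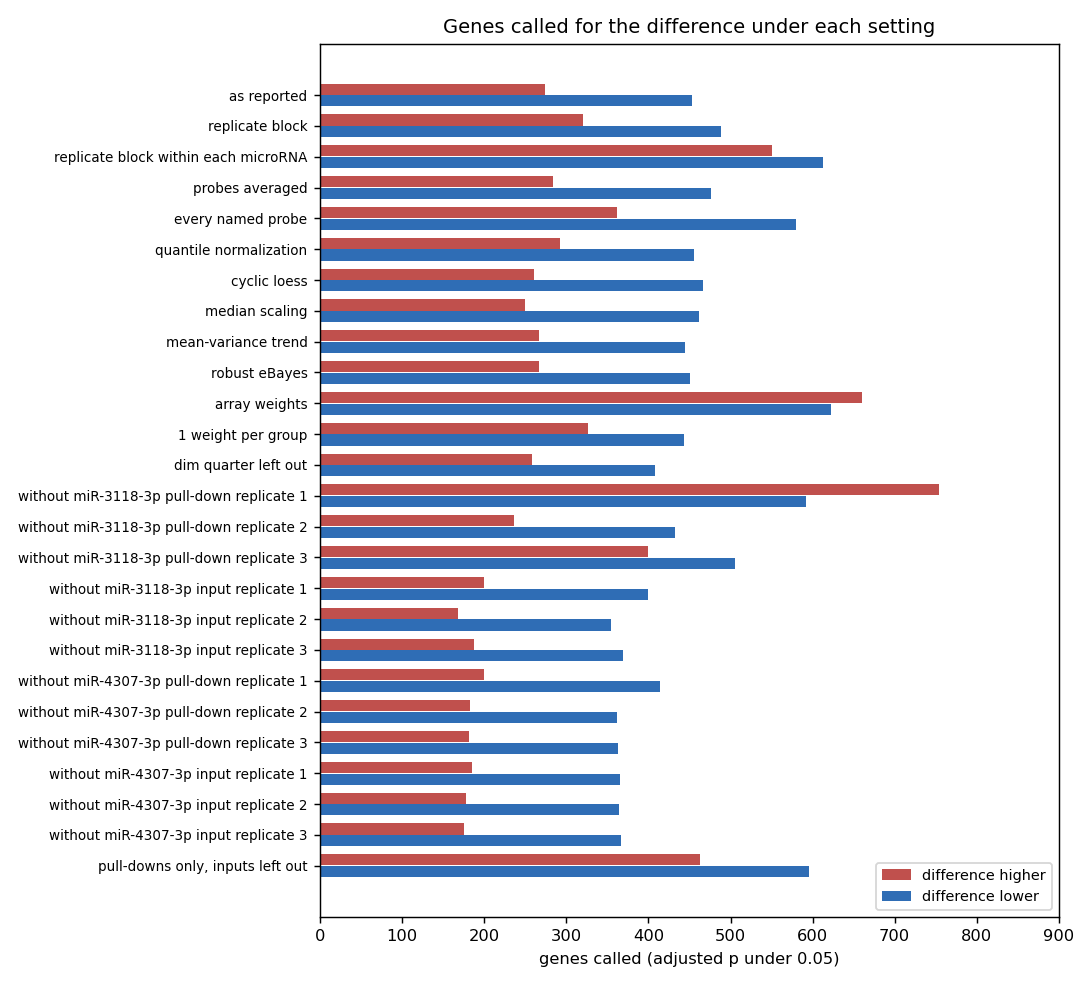
Number of genes called for the difference, as reported and under each alternative way of processing; red bars are genes higher with miR-3118-3p, blue bars genes lower with it. Lower genes outnumber higher genes except with array weights (660 higher, 623 lower) and when miR-3118-3p pull-down replicate 1 is left out (754 higher, 592 lower).

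Among the genes recovered more with miR-3118-3p, the 15 with the largest differences were all called under every alternative. NUP160, which belongs to the scaffold ring of the nuclear pore, had values of 10.67, 11.24 and 11.19 in the miR-3118-3p pull-down, with 9.18, 9.35 and 9.44 in its input, against 8.89, 9.30 and 9.37 in the pull-down of miR-4307-3p, with 9.69, 9.46 and 9.55 in its input. The 3 miR-3118-3p pull-down arrays lay above all 9 others. Its difference of enrichments was 2.09 ± 0.23 (SE of the fit, n = 3 arrays per group here and below, limma adjusted p = 4.62e-05). MRPS18B, a protein of the small mitochondrial ribosomal subunit, had 11.78, 12.11 and 12.07 in the miR-3118-3p pull-down, with 10.14, 10.18 and 10.37 in its input, against 9.97, 10.04 and 9.62 in the pull-down of miR-4307-3p, with 10.33, 10.17 and 9.74 in its input. Only the miR-3118-3p pull-down stood apart, while pull-down and input of miR-4307-3p overlapped. The difference was 1.96 ± 0.23 (adjusted p = 6.41e-05, limma), and a second probe of the gene gave 2.29.

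PABPC1, the main cytoplasmic poly(A)-binding protein, had 12.81, 12.77 and 12.78 in the miR-3118-3p pull-down, with 11.46, 11.72 and 11.56 in its input, against 11.19, 10.93 and 10.83 in the pull-down of miR-4307-3p, with 11.48, 11.20 and 11.39 in its input. The pull-down of miR-3118-3p lay above its input on every array, and that of miR-4307-3p lay just below its own; the second of these differences, -0.38, did not pass its test. The difference of enrichments was 1.58 ± 0.18 (adjusted p = 6.29e-05, limma), and a second probe gave 1.23. Probes of PABPC1 may also detect copies of nearly the same sequence, since the gene has processed pseudogenes.

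COMMD9, of the family of COMM-domain proteins that take part in endosomal recycling, had 10.74, 10.44 and 10.19 in the miR-3118-3p pull-down, with 9.39, 8.91 and 8.72 in its input. In cells with miR-4307-3p it had 8.63, 8.48 and 8.81 in the pull-down and 8.97, 8.79 and 9.14 in the input. The difference of 1.78 ± 0.25 came with the same replicate order in pull-down and input, so that each miR-3118-3p pair was separated by more than 1. ATG12, the ubiquitin-like modifier of autophagosome formation, had 9.50, 10.73 and 10.38 in the miR-3118-3p pull-down, with 8.59, 8.58 and 8.48 in its input, against 8.67, 8.61 and 8.87 in the pull-down of miR-4307-3p, with 8.71, 8.46 and 8.81 in its input. Replicate 1 was the lowest miR-3118-3p pull-down array, and the SE was one of the largest of the 15 (1.60 ± 0.31).

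Of the others, 9 had differences between 1.47 and 1.84. They were SH3BGRL, a small thioredoxin-fold protein; KLHL23, of the kelch family; MIER1, a transcriptional corepressor; MRI1, an isomerase of methionine salvage; CRADD, a death-domain adaptor; MIX23, a mitochondrial intermembrane space protein; C1orf52; FRMD6, a FERM-domain protein upstream of the Hippo kinases; and POLE2, an accessory subunit of DNA polymerase epsilon. MIER1 had the largest miR-3118-3p enrichment of the 15 (1.89), with 0.20 for miR-4307-3p. MRI1 was measured by 3 probes, whose differences were 1.68, 1.48 and 1.98. MIX23 was enriched with miR-3118-3p (0.64) and depleted with miR-4307-3p (-0.93), so that the larger share of its difference came from miR-4307-3p.

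**Figure D3:**
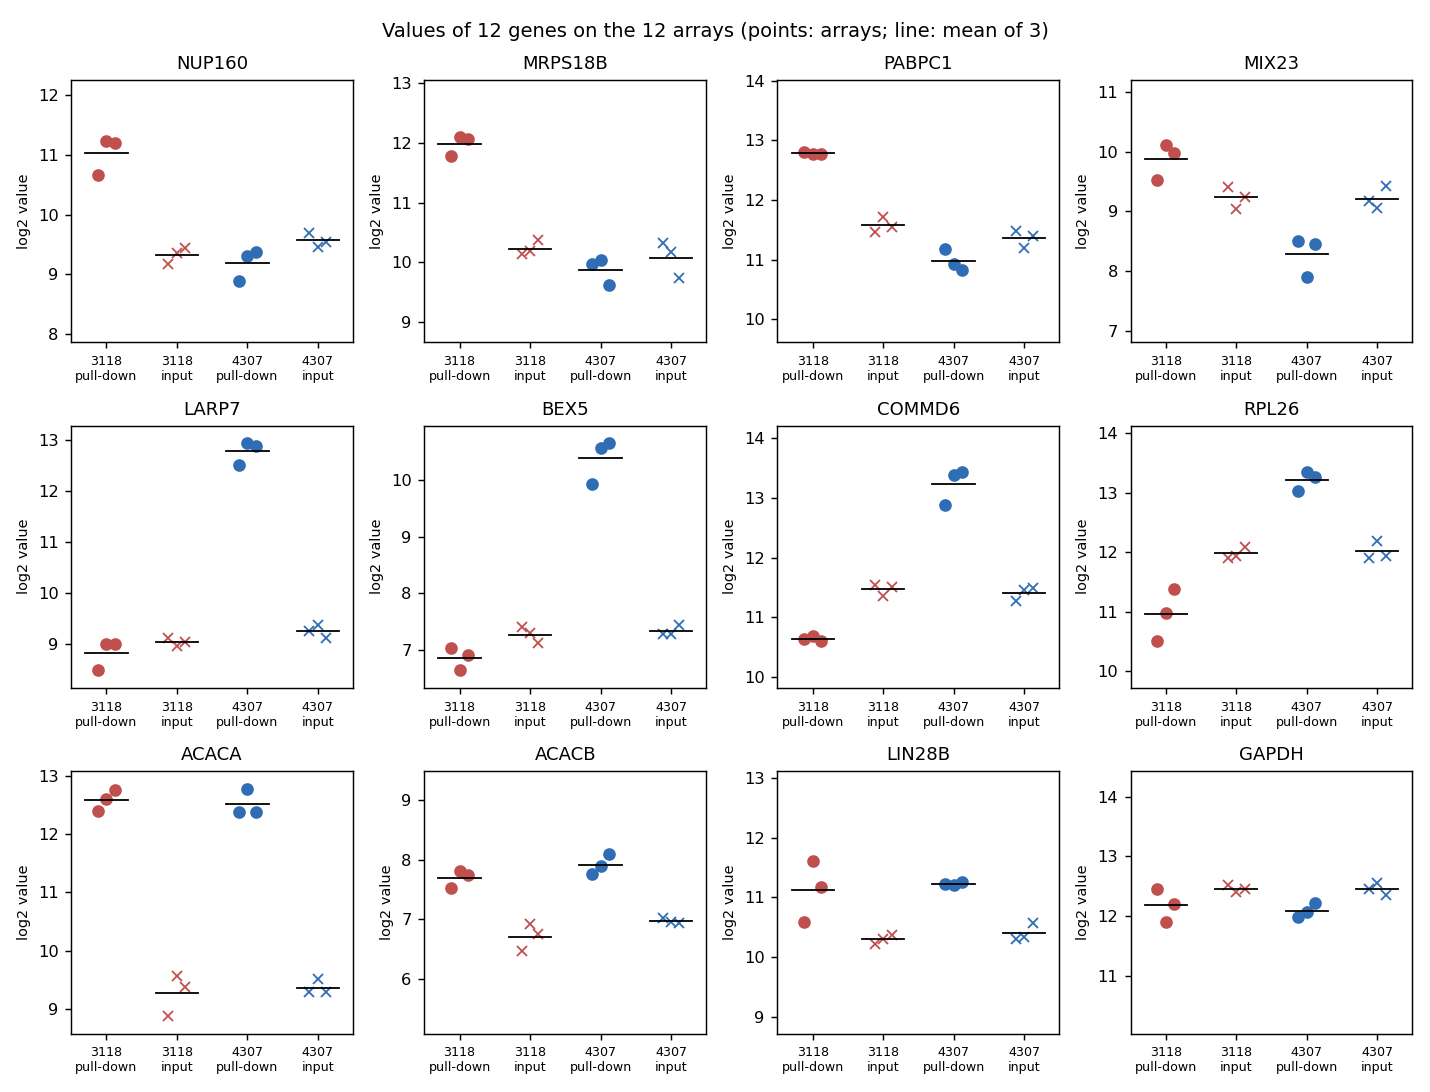
Values of 12 genes on the 12 arrays, on the log2 scale; circles are pull-downs and crosses inputs, miR-3118-3p in red and miR-4307-3p in blue, and the line is the mean of 3 arrays. NUP160, MRPS18B and PABPC1 stand apart in the miR-3118-3p pull-down; LARP7, BEX5, COMMD6 and RPL26 in the miR-4307-3p pull-down, and ACACA and ACACB in both.

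The genes recovered more with miR-4307-3p included the largest differences of all, and the 15 named were also called under every alternative. LARP7, which holds the 7SK RNA that restrains transcription elongation, had 8.48, 9.01 and 8.99 in the miR-3118-3p pull-down, with 9.12, 8.96 and 9.05 in its input, against 12.53, 12.95 and 12.89 in the pull-down of miR-4307-3p, with 9.26, 9.37 and 9.11 in its input. The miR-4307-3p pull-down exceeded every other array by more than 3, and the miR-3118-3p arrays overlapped. The difference of enrichments was -3.76 ± 0.22 (adjusted p = 1.75e-07, limma), and a second probe gave -3.90. BEX5, of the brain-expressed X-linked family, had 7.03, 6.64 and 6.91 in the miR-3118-3p pull-down, with 7.40, 7.29 and 7.12 in its input, against 9.93, 10.56 and 10.65 in the pull-down of miR-4307-3p, with 7.27, 7.28 and 7.44 in its input. The miR-3118-3p pull-down lay a little below its input on all 3 pairs, at -0.41, which did not pass its test; the difference was -3.46 ± 0.24 (adjusted p = 9.85e-07, limma).

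HMGN5, a nucleosome-binding protein that loosens chromatin, had 6.67, 7.21 and 7.55 in the miR-3118-3p pull-down, with 7.37, 7.56 and 7.94 in its input, against 9.94, 10.65 and 10.66 in the pull-down of miR-4307-3p, with 7.63, 7.90 and 7.51 in its input. Its difference was -3.21 ± 0.32, with the largest SE of the 15. NOP58, which forms the core of box C/D small nucleolar particles, had 9.45, 10.23 and 10.55 in the miR-3118-3p pull-down, with 10.43, 10.25 and 10.56 in its input, against 12.57, 12.53 and 12.56 in the pull-down of miR-4307-3p, with 10.25, 10.29 and 10.22 in its input. The miR-4307-3p arrays of NOP58 were nearly equal within pull-down and input, and replicate 1 was low in the miR-3118-3p pull-down; the difference was -2.63 ± 0.28. IFT74, a subunit of the intraflagellar transport complex that builds cilia, had 6.62, 7.08 and 6.94 in the miR-3118-3p pull-down, with 7.31, 7.07 and 7.41 in its input, against 9.29, 9.72 and 9.61 in the pull-down of miR-4307-3p, with 7.39, 7.27 and 7.20 in its input. Its difference was also -2.63, with an SE of 0.21.

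ERICH5 (-2.91), NSRP1, a splicing regulator (-2.53), C16orf87 (-2.53), CCDC112, a centriolar satellite protein (-2.49), RAB13, a GTPase of junction traffic (-2.32), and CHMP4A, of the ESCRT-III membrane-scission complex (-2.28), were enriched with miR-4307-3p by 2.15 to 2.65, and none of the 6 passed the test with miR-3118-3p. For RAB13 the highest miR-3118-3p pull-down value was in replicate 1 (8.47, beside 7.83 and 7.86 in replicates 2 and 3). The remaining 4 of the 15, COMMD6, CFAP36, WDSUB1 and AAMDC, were depleted with miR-3118-3p.

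**Figure D4:**
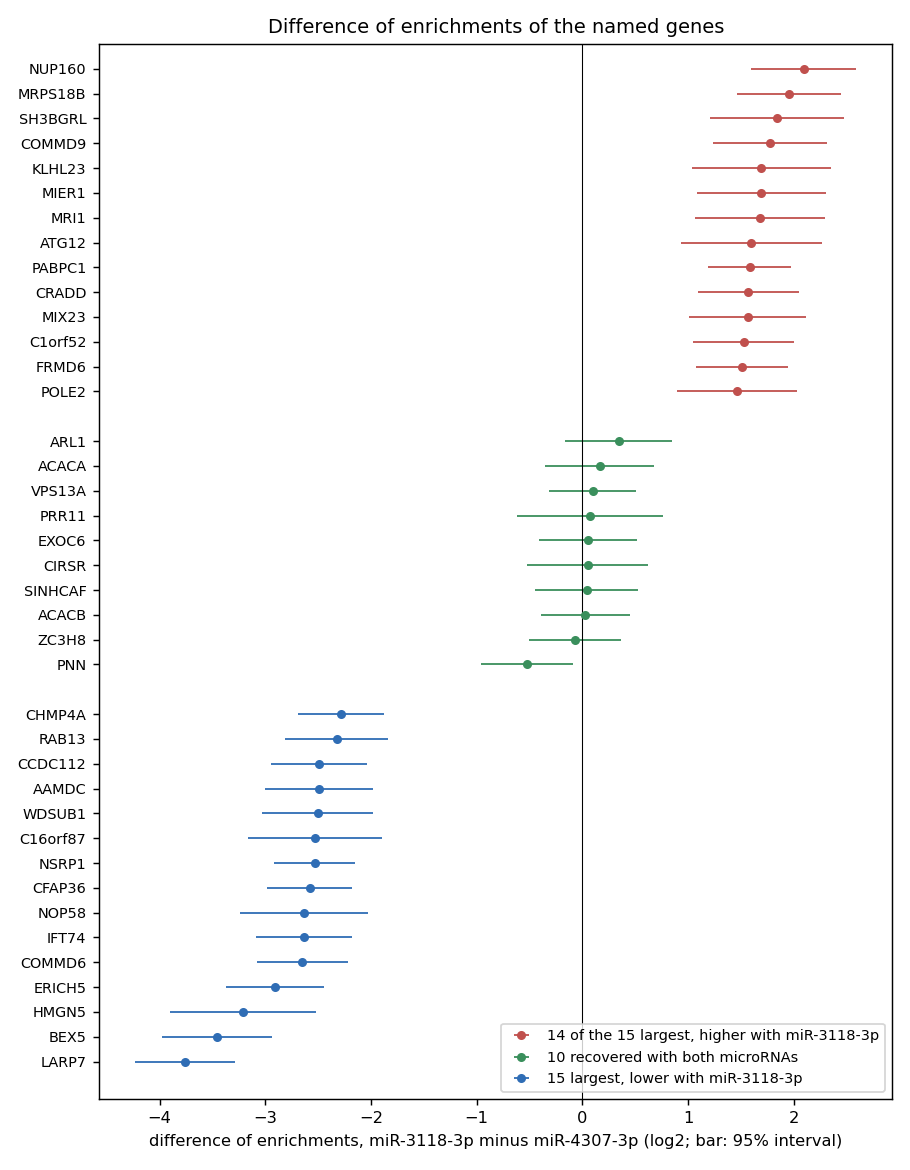
Difference of enrichments, miR-3118-3p minus miR-4307-3p on the log2 scale, of 14 of the 15 largest higher genes (red), the 10 genes recovered with both microRNAs (green) and the 15 largest lower genes (blue); points are estimates and bars 95% intervals. The higher genes lie between 1.47 and 2.09 and the lower between -3.76 and -2.28.

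Genes that went opposite ways with the microRNAs made up 82 of the 727, 13 among the higher and 69 among the lower. COMMD6, a small COMM-domain protein, had 10.64, 10.69 and 10.60 in the miR-3118-3p pull-down, with 11.55, 11.36 and 11.50 in its input, against 12.89, 13.39 and 13.43 in the pull-down of miR-4307-3p, with 11.28, 11.46 and 11.49 in its input. The inputs were alike and the pull-downs lay on either side of them, at -0.83 and 1.82. The difference was -2.65 ± 0.20 (adjusted p = 1.20e-06, limma). RPL26, a protein of the large cytosolic ribosomal subunit, had 10.51, 10.98 and 11.39 in the miR-3118-3p pull-down, with 11.90, 11.94 and 12.09 in its input, against 13.02, 13.34 and 13.27 in the pull-down of miR-4307-3p, with 11.91, 12.19 and 11.93 in its input. Neither pull-down overlapped the inputs, and the difference was -2.22 ± 0.26. RPL26 has near-identical copies in the genome, so its probe may read more than 1 gene. The other largest of this kind were CFAP36, a ciliary protein (-0.42 with miR-3118-3p and 2.16 with miR-4307-3p), WDSUB1, a WD-repeat and U-box protein (-0.58 and 1.92), AAMDC (-0.80 and 1.69) and UBXN1, an adaptor of the p97 segregase (-0.46 and 1.66).

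Recovery with both microRNAs was less common than recovery with one. Enriched genes numbered 1216 (12.7%) with miR-3118-3p and 770 (8.04%) with miR-4307-3p, and 157 were in both sets, 12.9% of those of miR-3118-3p and 20.4% of those of miR-4307-3p. Depleted genes numbered 1042 (10.9%) and 585 (6.1%), with 308 in both, 29.6% of those of miR-3118-3p and 52.6% of those of miR-4307-3p. The count of 585 became 922 with same-numbered pull-down and input arrays of each microRNA taken as pairs. All these counts rest on a spread shared by the 4 groups, and the order of the microRNAs depended on it. From each microRNA's own 6 arrays, 575 genes were enriched with miR-3118-3p and 1266 with miR-4307-3p. Depleted genes then numbered 409 and 1183. The shares in both sets and those below hold only for the shared spread. A gene enriched with one microRNA only was not always shown to differ between them: the difference was called for 227 of the 1059 enriched with miR-3118-3p alone (21.4%) and for 366 of the 613 enriched with miR-4307-3p alone (59.7%).

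For 133 genes enriched with both, the 95% interval of the difference lay within 1 of 0. The count was 409 with array weights and 287 with a block within each microRNA, and it lay between 55 and 260 when single arrays were left out. ACACA, acetyl-CoA carboxylase 1, an enzyme of fatty acid synthesis that carries biotin as its cofactor, had 12.40, 12.60 and 12.75 in the miR-3118-3p pull-down, with 8.88, 9.56 and 9.38 in its input, against 12.37, 12.78 and 12.39 in the pull-down of miR-4307-3p, with 9.30, 9.51 and 9.30 in its input. Both pull-downs stood about equally far above their inputs, by 3.31 and 3.14, the highest enrichment with miR-3118-3p of the genes named. The difference was 0.16 ± 0.24 (95% interval -0.36 to 0.68), and a second probe gave 0.30. ACACB, the mitochondrial acetyl-CoA carboxylase, had 7.53, 7.81 and 7.74 in the miR-3118-3p pull-down, with 6.46, 6.92 and 6.76 in its input, against 7.76, 7.90 and 8.10 in the pull-down of miR-4307-3p, with 7.02, 6.96 and 6.93 in its input. Its enrichments were 0.98 and 0.95, with a difference of 0.03 ± 0.20.

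None of the other biotin-dependent carboxylases and biotin-handling genes was called as enriched with both microRNAs. Of 9 measured, 0 passed limma's test of the difference, and at an unadjusted p under 0.05 there was 1, on the lower side. Enrichments with miR-3118-3p and miR-4307-3p were 0.06 and 0.24 for PC, -0.01 and 0.08 for PCCA, -0.40 and -0.50 for PCCB, -0.06 and 0.65 for MCCC1, -0.25 and -0.40 for MCCC2, 0.14 and 0.22 for HLCS, which attaches biotin to the carboxylases, and 0.13 and 0.07 for BTD, which recycles biotin. Beside ACACA and ACACB, MCCC1 was the only one called as enriched, and only with miR-4307-3p. PC, MCCC2, HLCS and BTD were among the genes removed by the filter on dim genes, so their low enrichments may reflect a lack of signal, which was not tested.

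The other 8 genes recovered with both had smaller-of-the-2 enrichments of 0.86 to 1.20. They were CIRSR, a splicing-related corepressor (1.25 with miR-3118-3p and 1.20 with miR-4307-3p), PRR11 (1.01 and 0.94), EXOC6, of the exocyst (0.94 and 0.89), SINHCAF, of the SIN3-HDAC complex (0.92 and 0.88), VPS13A, a lipid-transfer protein (0.97 and 0.87), ZC3H8, of the little elongation complex (0.87 and 0.94), ARL1, a Golgi GTPase (1.20 and 0.86), and PNN, a splicing-associated protein (0.93 and 1.45). The interval of PNN, -0.96 to -0.09, did not include 0, although its adjusted p was 0.154 by limma. A further 11 genes were enriched with both and called for the difference, so they are not among the 133. UBE3A, the ubiquitin ligase lost in Angelman syndrome, had enrichments of 0.71 with miR-3118-3p and 1.94 with miR-4307-3p and a difference of -1.22 ± 0.26.

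Gene groups were compared by counts against the 2.86% higher and 4.73% lower of all genes, with a median difference of 0.02 over all genes. Of 52 CCDC-named coiled-coil genes, a group defined by name rather than function, 14 were lower (26.9%) and 0 higher, with a median of -0.27. CCDC112 (-2.49), CCDC138 (-1.93), CCDC88A, an actin-binding migration protein (-1.81), and CCDC59 (-1.58) led it. Their enrichments with miR-4307-3p were 2.55, 1.93, 1.75 and 1.18. None of the 52 passed the test as depleted with that microRNA, beside 6.1% of all genes. Leaving out single arrays gave 11 to 18 lower genes.

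Centrosome and ciliary transport genes, which organise microtubules and build the cilium, were lower in 12 of 55 cases (21.8%) and higher in 1, CEP20, with a median of -0.22. IFT74 (-2.63), CEP95 (-1.54), CEP70 (-1.49) and the centriolar calcium-binding protein CETN2 (-1.49) were the largest. With miR-3118-3p their enrichments were -0.39, 0.04, -0.02 and -0.42, none past its test. The count lay between 11 and 13 without single arrays.

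Mitochondrial ribosomal proteins were lower in 13 of 77 (16.9%) and higher in 2, with a median of -0.18. MRPS23 (-1.97), MRPL52 (-1.70) and MRPS18C (-1.48) were lower, while MRPS18B, a paralogue of MRPS18C, was among the highest of all genes (1.96). MRPS18C was depleted with miR-3118-3p (-0.99) and enriched with miR-4307-3p (0.49). The higher count was 6 without miR-3118-3p pull-down replicate 1. As a group these messages were more often depleted than enriched, 35 against 4 with miR-3118-3p and 18 against 12 with miR-4307-3p. Of all genes, 10.9% were depleted and 12.7% enriched with miR-3118-3p, and 6.1% and 8.04% with miR-4307-3p. Subunits of oxidative phosphorylation were also more often depleted than enriched, 36 against 6 with miR-3118-3p and 35 against 2 with miR-4307-3p. Their difference of enrichments did not lean to the lower side: 4 of 76 were higher (5.26%) and 2 lower (2.63%), with a median of -0.02. NDUFA9, of respiratory complex I, was the highest (1.29), and ATP5ME, of ATP synthase, the lowest (-1.25, with -1.98 from a second probe). Without miR-3118-3p pull-down replicate 1 there were 9 higher subunits.

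Nucleolar ribosome biogenesis factors were lower in 9 of 84 (10.7%) and higher in 3, with a median of -0.14. NOP58 (-2.63), UTP11, of the small-subunit processome (enrichments of -0.99 with miR-3118-3p and 1.01 with miR-4307-3p), GNL2, a nucleolar GTPase of the large subunit (-1.97), and LYAR (-1.65) led the lower members. The higher count was 9 without miR-3118-3p pull-down replicate 1, as many as the lower count reported, and 0 or 1 without most other single arrays. Cytosolic ribosomal proteins stayed near the background, with 4 of 71 lower (5.63%) and 2 higher (2.82%), although RPL26 (-2.22) and RPL36A (-1.88) were among the larger single differences; the lower count was 8 without miR-3118-3p pull-down replicate 1. RPL36A and RPL29 (-1.12) were depleted with miR-3118-3p (-1.44 and -1.36) and not enriched with miR-4307-3p. Of 36 proteasome subunits 5 were lower (13.9%) and 0 higher, with PSMD1 (-1.28), PSME1 (-1.27) and PSMD6 (-1.21) the largest. The proteasome count was 3 without any of miR-3118-3p input replicates 2 and 3, miR-4307-3p pull-down replicates 2 and 3 and miR-4307-3p input replicate 3.

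Splicing regulators of the SR, hnRNP and RBM groups were lower in 6 of 83 (7.23%) and higher in 2, SRSF3 and SF3B5, while the median of the group was 0.12, above that of all genes; without miR-3118-3p pull-down replicate 1 there were 8 higher. NSRP1 (-2.53), RBM28 (-1.73), SREK1 (-1.59) and RBM34 (-1.56) were lower. Chromatin remodellers, CBX proteins and histone methyltransferases had 5 of 55 lower (9.09%) and 0 higher, led by the heterochromatin protein CBX3 (-1.76), for which a second probe gave only -0.46, and INO80B (-1.54); the count was 3 without any of miR-3118-3p input replicates 2 and 3, miR-4307-3p pull-down replicate 3 and miR-4307-3p input replicates 1 and 2. Among heat shock proteins and J-domain cochaperones 5 of 58 were lower (8.62%) and 0 higher, with the mitochondrial chaperone HSPA9 (-1.94) and the ribosome-associated DNAJC2 (-1.47) in front. DEAD and DEAH box helicases had 3 of 43 lower (6.98%), with DDX10, a nucleolar helicase, at -2.10.

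Nuclear pore proteins had 3 of 29 higher (10.3%) and 0 lower, with a median of 0.21: NUP160 (2.09), NUP35 (1.38) and NUP153, of the nuclear basket (0.99). NUP35 was enriched with miR-3118-3p (0.57) and depleted with miR-4307-3p (-0.81). The count was 6 without miR-3118-3p pull-down replicate 1. Kelch and BTB adaptors and cullins, which assemble ubiquitin ligases, had 3 of 43 higher (6.98%) and 0 lower, KLHL23 (1.69), KLHL42 (0.88) and KLHL8 (0.73); the call of KLHL8 was lost in 17 of 24 alternatives. E2 ubiquitin-conjugating enzymes had 3 of 25 higher (12%) and 0 lower, UBE2D4 (0.96), UBE2Z (0.88) and UBE2T (0.86). Without miR-3118-3p pull-down replicate 1 the kelch and E2 groups had 8 and 5 higher genes, and the kelch group had 1 without miR-3118-3p input replicate 3, miR-4307-3p pull-down replicate 2 or miR-4307-3p input replicate 3. The calls of UBE2Z and KLHL42 were lost in 4 and 3 of the 24 alternatives. For UBE2Z and KLHL8 these included the pull-downs without inputs. HECT and UBR ligases had 2 of 24 lower (8.33%), UBE3A and HERC5 (-1.06, lost in 5 of 24 alternatives), and 0 higher; without miR-3118-3p pull-down replicate 1 there were 3 higher.

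Solute carriers, the largest group of membrane transporters, had 5 of 168 higher (2.98%), near the background, and 0 lower (0%), with a median of 0.11. SLC39A6, a zinc importer, was the highest (0.95, lost in 4 of 24 alternatives; a second probe gave 0.61). The higher count of solute carriers was 15 without miR-3118-3p pull-down replicate 1, 12 without its replicate 3, and lay between 2 and 8 without other single arrays. Zinc finger genes named ZNF had 8 of 271 higher and 8 lower (2.95% each), with a median of 0.09, and none differed by more than 1.15. On the shared spread 64 of the 271 were enriched with miR-3118-3p and 22 with miR-4307-3p, beside 12.7% and 8.04% of all genes. The higher ZNF genes numbered 22 without miR-3118-3p pull-down replicate 1 and were as few as 2 without other single arrays.

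Small families had calls in both directions. Of the BEX and TCEAL, COMMD and high mobility group genes, 10%, 10% and 11.1% were higher and 30%, 20% and 22.2% lower. The shares over all genes were 2.86% and 4.73%, and each share here rests on few genes. Of 10 BEX and TCEAL genes, X-linked relatives, BEX5 (-3.46), TCEAL4 (-1.87) and TCEAL3 (-1.87) were lower and BEX4 (0.74) was higher, a call lost in 5 of 24 alternatives. The other 6, BEX1, BEX2, BEX3, TCEAL1, TCEAL8 and TCEAL9, lay between -0.68 and -0.22 and did not pass. TCEAL4 had 11.21, 11.48 and 11.49 in the miR-3118-3p pull-down, with 11.60, 11.72 and 11.76 in its input, against 13.17, 13.50 and 13.31 in the pull-down of miR-4307-3p, with 11.70, 11.90 and 11.66 in its input. Of 10 COMMD genes, COMMD9 (1.78) was higher and COMMD6 (-2.65) and COMMD3 (-1.07) lower, and the other 7 lay between -0.46 and 0.65. Of 9 high mobility group genes, HMGN2 (0.81) was higher and HMGN5 (-3.21) and HMGB2 (-2.03) lower, while HMGN1, HMGN3, HMGN4, HMGB1, HMGB3 and HMGA1 lay between -0.51 and 0.69 without passing. HMG genes have many pseudogene copies that their probes may also read.

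Of 14 autophagy conjugation genes 1 was higher (7.14%) and 2 were lower (14.3%), beside 2.86% and 4.73% of all genes. ATG12 was higher (1.60). ATG3 (-1.66), the E2-like enzyme of LC3 conjugation, and ATG4B (-1.45), the protease that prepares LC3, were lower. ATG3 was enriched with miR-4307-3p (1.53), whereas ATG4B was depleted with miR-3118-3p (-1.19) and its call was lost in 3 of 24 alternatives. Second probes gave 1.02 for ATG12 and -0.92 for ATG3, the same direction at smaller size. Among 42 DNA replication genes 3 were higher (7.14%), POLE2 (1.47), the clamp loader subunit RFC3 (1.17, with 0.86 and 0.33 from 2 further probes) and ORC3 (1.06). The lower genes numbered 4 (9.52%), led by the large clamp loader subunit RFC1 (-1.52, with -1.14 from a second probe). Of 50 initiation factors 2 were higher (4%; 1 to 5 genes without single arrays) and 4 lower (8%). EIF3E (1.18) was the largest of the higher, and EIF5B (-1.83) and the cap-binding EIF4E2 (-1.74) the largest of the lower.

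**Figure D5:**
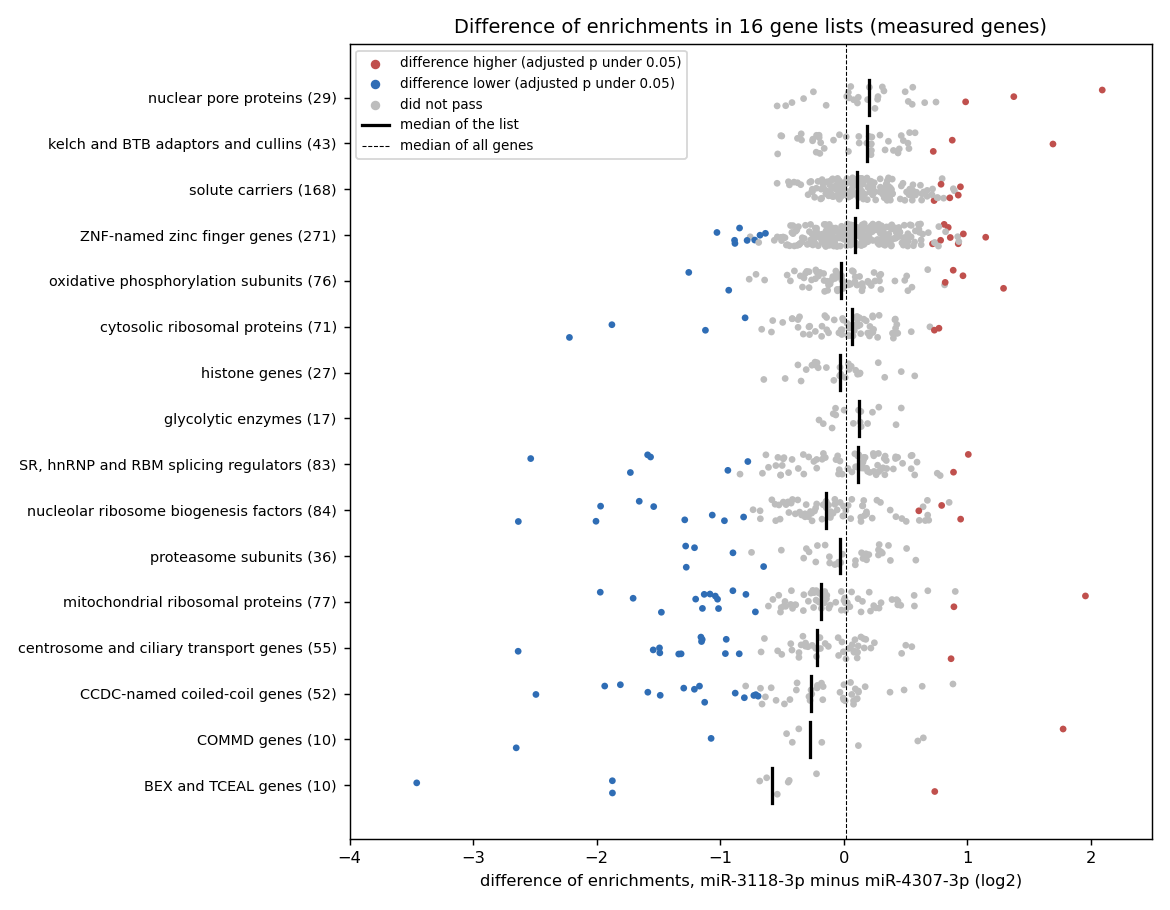
Difference of enrichments, miR-3118-3p minus miR-4307-3p on the log2 scale, for the measured genes of 16 groups (number in brackets); red points passed as higher, blue as lower and grey did not pass, the bar is the median of the group and the dashed line the median of all genes (0.02). The medians run from 0.21 for nuclear pore proteins to -0.58 for BEX and TCEAL genes.

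Genes of the microRNA pathway itself gave 1 call each way among 21 measured (4.76% each), beside 2.86% and 4.73% of all genes. TNRC6A, the scaffold that Argonaute recruits, was higher (0.80 ± 0.21), with a call lost in 6 of 24 alternatives. DDX5, a cofactor of primary microRNA processing, was lower (-1.09 ± 0.32), with a call lost in 9. Of 11 genes of the 7SK complex and of the La-related proteins 3 were lower (27.3%) and 0 higher. The lower genes were LARP7 (-3.76), LARP6 (-1.09) and SSB (-0.85, lost in 7 of 24 alternatives). A second probe of LARP6 gave -0.10. Of 50 genes of deadenylation, decapping and the exosome 4 were higher (8%) and 5 lower (10%), with PABPC1 the largest. Without single arrays there were 2 to 6 higher and 1 to 7 lower. The lower count was 7 without miR-3118-3p pull-down replicate 1, and 1 without miR-3118-3p input replicate 2, miR-4307-3p pull-down replicates 2 or 3, or any single miR-4307-3p input. No call in either direction was made by limma among 27 histone genes, 17 glycolytic enzymes, 14 interferon-induced and RNA-sensing genes, 14 Hippo pathway genes, a list without FRMD6, or 15 long noncoding and snoRNA host transcripts. At an unadjusted p under 0.05 there were 4 histone genes, 2 glycolytic enzymes, 0 interferon-induced genes, 3 Hippo pathway genes and 2 host transcripts. In the Hippo list AMOT, an angiomotin that binds YAP, had a difference of 1.49 ± 0.45 with an adjusted p of 0.0597 (limma), and the list had 2 higher genes without miR-3118-3p pull-down replicate 1, 1 higher without miR-3118-3p input replicate 3 and 1 lower without miR-3118-3p pull-down replicate 3. The common internal standards ACTB (0.14 ± 0.19) and GAPDH (0.08 ± 0.20) did not pass, though 2 further probes of GAPDH gave 0.52 and 0.57.

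Of 5 measured markers of the line, NEFM, a neurofilament protein, was lower (-0.87 ± 0.20) and INA, NEFL, LIN28B and VIM did not pass; LIN28B was enriched alike with both microRNAs, by 0.82 and 0.83, and VIM depleted alike, by -0.74 and -0.72. ALB was called as lower (-0.74, adjusted p = 0.0216, limma) at levels near the bottom of the table, where a value may not be signal of the gene.

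Calls were fewer among genes with a low input signal. Of the 2396 genes with the lowest input signal 27 (1.13%) were higher and 60 (2.5%) lower, and of the 2396 with the highest 82 (3.42%) were higher and 148 (6.18%) lower. Genes are not replicates, and how far the signal of a probe sets the power to make a call was not tested.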

How the data were processed

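RNA of 12 samples was measured on Illumina bead arrays, with amplified RNA labelled with biotin in pull-downs and inputs alike, per the labels' protocols. The log2 values are those deposited by the authors, made with lumi 2.2.1, as the submitters' processing notes state. How they were normalized, and the filter that left 15025 of 47319 probes, is not stated in those sources. A table of signals before normalization has 12 columns whose names match no sample label and was not used, so signal over background is unknown. The number of arrays limits the precision.

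Of the probes, 12354 had 1 symbol in the platform annotation, 2 had several and 2669 were not listed; symbols were checked through gene identifiers against RefSeq (GRCh38.p14), and 0 changed. Genes with several probes (2330) were represented by their brightest probe (mean over all 12 arrays); among 221 such called genes all probes went the same way for 211. The fit was limma 3.58.1 in R 4.3.3 (lmFit and eBayes, 4 group means, 8 residual degrees of freedom, no block), two-sided, with Benjamini-Hochberg adjustment over 9583 genes and a threshold of 0.05. Enriched and depleted mean past that threshold above or below input. A gene counted as recovered with both if enriched in both with the 95% interval of the difference within 1. Figures were drawn with matplotlib 3.10.9. The script was tested on simulated data for 9583 genes with each group's own spread, 200 of them with a known difference. Of the differences of 0.5, 1 and 2, 10.4%, 67.2% and 97.0% were called. Another 26 genes without a difference were also called. Beside at most 200 true calls, that is a larger share than the 0.05 at which the adjustment was set. The share of false calls among those reported may therefore also exceed 0.05, and many small differences may be missed.

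Named were the 15 largest differences each way among called genes whose same-numbered enrichments did not overlap, 10 genes recovered with both, 6 opposite genes, up to 4 called members of each list, all members of lists of at most 10, ACTB and GAPDH; names outside this rule (DSN1, CEP20, SRSF3, SF3B5, ALB, AMOT, RAB9B, CDK11A) were added after their values were seen. XIST and Y-linked genes are not named. A gene that the rule names is not reported here. The question, the members and the lists were chosen with earlier results of these data known, and no set test was run.

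The titles give the replicate numbers. After subtraction of group means, pull-down and input arrays with the same number correlated at 0.20 to 0.34 for miR-4307-3p, which meets the criterion of 0.1 in every pair. For miR-3118-3p they correlated at 0.07 to 0.48, which does not meet it. Alternatives were blocks, probes averaged or all tested, normalizations between arrays, other eBayes settings, array weights, a filter on dim genes, each array left out and pull-downs without inputs.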

Additional observations from a re-analysis of the deposited data

Results flagged for a closer look

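For 82 genes the pull-down lay above its input with one microRNA and below it with the other, each past the threshold, and the difference itself passed by limma. In 13 of them the enrichment was with miR-3118-3p and in 69 with miR-4307-3p. The 6 with the largest differences were COMMD6 (-2.65, adjusted p = 1.20e-06), CFAP36 (-2.58), WDSUB1 (-2.50), AAMDC (-2.49), RPL26 (-2.22) and UBXN1 (-2.12). These 6 are among the 69.

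Of 2671 probes without a single gene symbol, which enter no comparison above, 54 were higher and 144 lower with miR-3118-3p. The lowest, ILMN_3229570, had a difference of -4.19 ± 0.40 (limma adjusted p = 1.34e-05), with an enrichment of -0.25 in cells with miR-3118-3p and of 3.94 in cells with miR-4307-3p. The difference lies below that of LARP7, the lowest named gene (-3.76).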

How the results depend on the processing

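The 274 higher genes became 550 with a replicate block within each microRNA, 660 with array weights and 463 from pull-downs without inputs, and 168 to 754 when single arrays were left out. The 453 lower genes stayed within 1.5 times in every alternative (355 to 592 without single arrays). The replicate block over all groups gave 320 higher and 489 lower genes. Between pull-down and input of the same microRNA, all 6 arrays of each microRNA correlated best with their own number. Same-numbered arrays of different microRNAs correlated between -0.30 and 0.30. Differently numbered arrays of different microRNAs reached 0.44, miR-3118-3p input replicate 3 with miR-4307-3p pull-down replicate 2. The replicate number therefore does not account for all the likeness between arrays. Genes depleted with miR-3118-3p numbered 556 with 1 weight per group, an alternative chosen after seeing the data, and 409 from its 6 arrays alone, with 575 enriched; without single arrays there were 624 to 1453 depleted and 812 to 1696 enriched. Genes enriched with miR-4307-3p numbered 1593 with array weights, 1248 with 1 weight per group and 1266 from its 6 arrays alone, and 519 to 1051 without single arrays. Genes depleted with it numbered 922 with the block within each microRNA, 921 counting every named probe, 378 after cyclic loess, 1618 with array weights, 1206 with 1 weight per group and 1183 from its 6 arrays alone, and 234 to 964 without single arrays. The 133 genes recovered with both became 287 with the block within each microRNA, 409 with array weights and 24 with an interval within 0.5 of 0, and 55 to 260 without single arrays. Input against input gave 0 calls by limma in every alternative run; with a block within each microRNA it could not be fitted, since the blocks then hold the whole contrast. The causes of these shifts were not tested.

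Of 131 named genes called for the difference, 100 were called in every alternative, 31 lost the call in at least 1, and 0 reversed. The calls lost most often were those of KLHL8 (17 of 24), LEMD2 (11), CDK6 and ZNF529 (10 each). No named gene can be tied to a seed site here, no signal over background is known, and 3 arrays per group limit every value.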

Other observations

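Lamina and membrane genes gave single calls in both directions. ZMPSTE24, the protease that matures prelamin A, was higher (1.28 ± 0.26, limma adjusted p = 0.0058), with an enrichment of 1.71 in cells with miR-3118-3p and of 0.43 in cells with miR-4307-3p, of which only the first passed its test. ANKLE2 (-1.10) and LEMD2 (-0.71), proteins of the inner nuclear membrane and the nuclear envelope, were lower. Of 14 lamina genes, 7.14% were higher and 14.3% lower. Of 133 TMEM-named genes 2 were higher, TMEM9B (1.11) and TMEM19 (1.16), and 2 lower, TMEM87A (-1.12) and TMEM126A (-0.77), or 1.5% each way, beside a background of 2.86% and 4.73%; without single arrays there were 1 to 10 higher, 10 of them without miR-3118-3p pull-down replicate 1, and 1 to 4 lower.

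Of 26 cholesterol and fatty acid synthesis genes 2 were higher (7.69%), the sterol oxidase MSMO1 (1.04) and the desaturase SC5D (0.94). Farnesyl diphosphate synthase, FDPS (-1.31), was the only lower one (3.85%). The shares over all genes were 2.86% and 4.73%. SC5D was not called as enriched with miR-3118-3p (0.17) and was depleted with miR-4307-3p (-0.76). The call of MSMO1 was lost where its 3 probes were averaged. Of 49 cyclins and cyclin-dependent kinases 2 were higher (4.08%), CCNL1 (0.93) and CDK6 (0.74), and 3 lower (6.12%), CDK4, CDK5 (-1.09) and CDK11A (-0.67), which has a near-identical paralogue; without single arrays there were 1 to 5 higher and 1 to 3 lower. CDK4 was enriched with miR-4307-3p (0.80) and CDK6 with miR-3118-3p (0.84). The difference of CDK6 was as low as 0.32 over the alternatives, and its call was lost from pull-downs without inputs. Among 49 RAB-named genes, RAB21 (1.07), RAB23 (1.01) and the RAB effector RAB11FIP2 (1.04) were higher (6.12%). RAB13 (-2.32) and RAB9B (-0.93) were lower (4.08%). Without miR-3118-3p pull-down replicate 1 there were 9 higher, and without its replicate 3 there were 5. Of the calls in these 2 paragraphs, those of LEMD2 (11 of 24 alternatives), CDK6 (10), CDK5 (9), TMEM126A (8), RAB23 (7), TMEM19 (4) and SC5D (2) were also lost in some, while RAB9B and CDK11A were not followed across the alternatives.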
